A study of Mus musculus with 2 samples.

Results

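The 7 genes described here encode transcription factors that carry the signal of the circadian clock to other genes: Dbp, Tef and Hlf of the PAR bZIP family, Nfil3, the DEC repressors Bhlhe40 and Bhlhe41, and the nuclear receptor Rora. They were chosen by name, not by level, as 7 of the 55536 annotated genes in the tables, and all 7 had a TPM (a gene's share of all transcripts, corrected for transcript length) of 1 or more in both animals. RNA came from a calf muscle, the gastrocnemius, of 2 males aged 25 days of the F1 cross written B6Cast F1 or B6CASTF1/J, with no genetic change or treatment given in the labels. Such mice carry 1 C57BL/6J and 1 CAST/EiJ genome, the reference is of the former strain, and the effect of CAST/EiJ sequence on the estimates was not tested. Each animal gave 1 library from 300 ng of total RNA with spike-ins, and the libraries, called animal 1 and animal 2 here, held 35098487 and 37428588 expected counts. The labels number them as different males and as biological replicates but give both the same donor entry, so their differences may in part be technical. The time of day at which tissue was taken is not given in the sources used here, and whether the animals were taken at the same clock time was not tested.

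In the mammalian clock, CLOCK and BMAL1 (gene Arntl) bind E-box sequences and switch on the period and cryptochrome genes, whose proteins then repress them. DBP, TEF and HLF activate genes through the D-box, and NFIL3 is a basic leucine zipper repressor that binds the same kind of sequence. BHLHE40 and BHLHE41 compete for E-boxes as repressors. ROR receptors activate through an element at which the REV-ERB receptors (genes Nr1d1 and Nr1d2) repress, and Arntl is the best known gene under this pair. In skeletal muscle the clock is known for its part in glucose use, lipid metabolism and the timing of muscle-specific genes.

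RefSeq promoter windows (GRCm38.p6, the build also called mm10), running from 250 bases before to 50 bases after a start, were matched for 6 of the 7 genes in 7 windows, 2 of them for Tef. The windows were searched on both strands for the E-box CACGTG, the D-box TTATGTAA or TTACGTAA, the ROR element TAGGTCA and the cyclic AMP response element TGACGTCA. Of 32851 windows of all genes, 7.15% held the E-box, 1.06% the D-box, 2.61% the ROR element and 1.79% the cyclic AMP element. The E-box stood in both Tef windows and in that of Bhlhe41, the cyclic AMP element in that of Hlf and the ROR element, on the opposite strand, in that of Nfil3. The Dbp and Rora windows held none of these words, and no D-box was found in any of the 7. Only the first 91 bases of the Dbp window lie before the annotated start of Dbp-201. The Rora window covers the start of Rora-201 but not that of Rora-202. These matches describe letters only. They are shown 5′ to 3′ on the strand of the gene, with the matching word in capitals, because they differ between the genes whose levels follow. The first Tef stretch and that of Nfil3 lie inside the transcripts Tef-202 and Nfil3-201, downstream of their annotated starts, whereas the second Tef stretch lies directly before the start of Tef-201. That second stretch holds no annotated Tef exon but also lies within the spans of Tef-202 and Tef-206, whose starts are upstream.
Tef, inside Tef-202, plus strand, chr15:81802534-81802563: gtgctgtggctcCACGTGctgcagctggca
Tef, before Tef-201, plus strand, chr15:81811164-81811413: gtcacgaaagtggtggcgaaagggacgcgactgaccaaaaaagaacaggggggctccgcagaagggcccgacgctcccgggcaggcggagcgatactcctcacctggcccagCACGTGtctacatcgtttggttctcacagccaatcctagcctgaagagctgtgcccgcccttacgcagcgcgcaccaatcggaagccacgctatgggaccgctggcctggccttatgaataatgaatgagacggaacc
Bhlhe41, minus strand, chr6:145865559-145865670: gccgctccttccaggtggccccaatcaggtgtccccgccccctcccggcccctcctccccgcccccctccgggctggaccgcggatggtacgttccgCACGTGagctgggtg
Hlf, minus strand, chr11:90390908-90390937: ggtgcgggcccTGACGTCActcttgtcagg
Nfil3, minus strand, chr13:52981033-52981062: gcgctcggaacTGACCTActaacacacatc

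Among the activators, Tef was by far the most abundant and Hlf the least. Tef (chromosome 15, 81802421 to 81826863, plus strand) stood at 43.93 TPM in animal 1 and 44.17 in animal 2, with a mean of 44.05 ± 0.17 (SD, n = 2). Its level was above that of 90.6% of the 9937 nuclear protein-coding genes detected, whose median was 6.82 TPM. Dbp (chromosome 7, 45705088 to 45710203, plus strand), the D-box activator named for binding the albumin promoter, stood at 3.79 and 5.58 TPM, or 4.69 ± 1.27 (SD, n = 2), and was thus below the median. Hlf (chromosome 11, 90336536 to 90390895, minus strand), named as the partner in a leukaemia fusion protein, stood at 1.75 and 1.28 TPM, or 1.51 ± 0.33 (SD, n = 2), above 6.28% of detected coding genes. The deposited intervals of these estimates, whose level is not stated, were 40.5 to 48.1 and 40.7 to 47.8 TPM for Tef, 3.12 to 4.60 and 4.71 to 6.46 for Dbp, and 1.46 to 3.56 and 1.24 to 2.63 for Hlf. The animals' intervals overlapped for Tef and Hlf but not for Dbp. Within the family total, Tef took 87.7% ± 1.59 (SD, n = 2), Dbp 9.30% ± 2.31 and Hlf 3.02% ± 0.73. The plot of family shares shows the same order in each animal and in both sets of transcript estimates deposited.

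**Figure D1:**
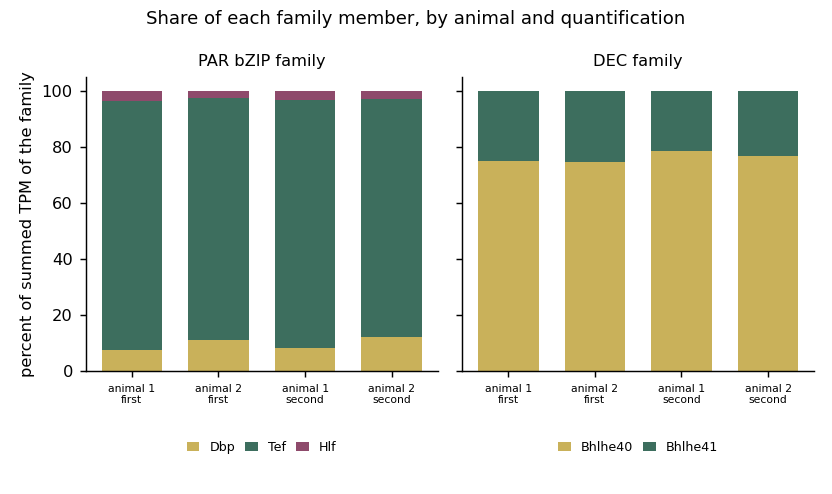
Stacked bars give the percent of each family's summed TPM held by each gene, for animal 1 and animal 2 in the first and second quantification. Tef fills most of the PAR bZIP bars and Bhlhe40 most of the DEC bars, in both animals and both quantifications.

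The repressor of the same D-box sequences, Nfil3 (chromosome 13, 52967209 to 52981073, minus strand), was second among the 7 genes at 26.00 and 21.01 TPM in animals 1 and 2, a mean of 23.5 ± 3.53 (SD, n = 2). Its deposited intervals, 24.1 to 26.7 and 19.4 to 21.7 TPM, did not overlap. The level of Tef was 1.69 times that of Nfil3 in animal 1 and 2.10 times in animal 2. Nfil3 was 6.86 times Dbp in animal 1 but 3.77 times in animal 2, and Tef was 11.6 and 7.92 times Dbp. Against Dbp, both the repressor and the more abundant activator were thus lower in animal 2.

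Of the DEC repressors, Bhlhe40 was the more abundant. Bhlhe40 (chromosome 6, 108660629 to 108666925, plus strand), also known as DEC1, stood at 20.39 and 24.22 TPM in animals 1 and 2, or 22.3 ± 2.71 (SD, n = 2). Bhlhe41 (chromosome 6, 145858243 to 145865558, minus strand), or DEC2, stood at 6.76 and 8.25 TPM, or 7.51 ± 1.05 (SD, n = 2). Both were higher in animal 2, and their intervals overlapped between the animals, at 18.0 to 22.7 and 21.6 to 26.6 TPM for Bhlhe40 and 5.69 to 7.83 and 7.04 to 9.36 for Bhlhe41. The ratio of Bhlhe40 to Bhlhe41 was 3.02 in animal 1 and 2.94 in animal 2, so it varied less than either gene.

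Rora (chromosome 9, 68653786 to 69388246, plus strand), the ROR activator, stood at 23.29 and 21.41 TPM, or 22.4 ± 1.33 (SD, n = 2), with overlapping intervals of 21.8 to 24.8 and 20.2 to 22.7. Its relative Rorb, known mainly from the nervous system, stood at 0.06 in both animals, from 15 and 12 counts, under the detection threshold of 1 TPM. Rora was the gene of the 7 with the most counts, at 4306 and 4336, spread over the longest transcript.

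Ordered by mean TPM, the genes ran Tef, Nfil3, Rora, Bhlhe40, Bhlhe41, Dbp and Hlf, and the second quantification gave the same order. The ranges over both animals did not overlap between Tef and Nfil3, between Bhlhe40 and Bhlhe41, or between Dbp and Hlf. Nfil3, Rora and Bhlhe40 lay within each other's spread. Bhlhe41 and Dbp were apart in the first quantification but overlapped in the second, where Bhlhe41 stood at 7.22 and 9.64 TPM and Dbp at 5.63 and 7.96. In a bulk tissue, a lower level from fewer cells of a type and from less RNA per cell cannot be told apart.

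**Figure D2:**
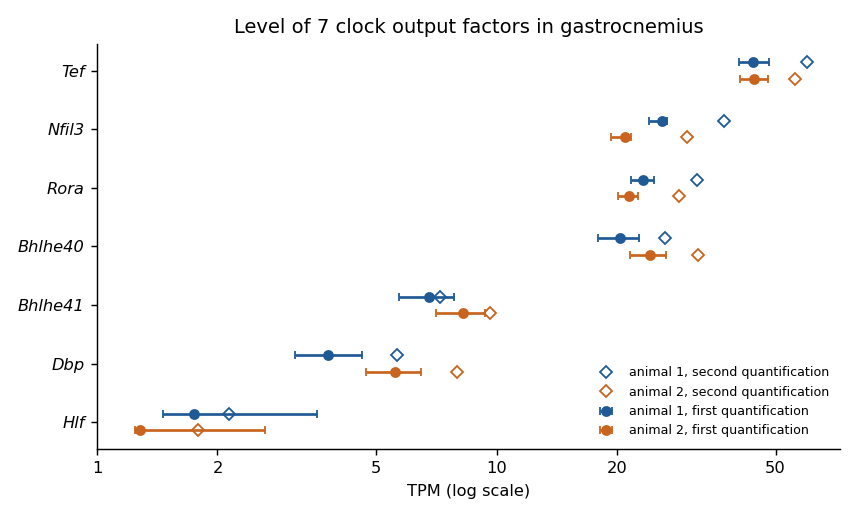
Points give the TPM of each gene on a log scale in animal 1 (blue) and animal 2 (orange), with the deposited interval as a bar, and open diamonds the second quantification, which has no interval. Tef lies highest near 44 TPM, Nfil3, Rora and Bhlhe40 sit together between 20.39 and 26.00 TPM, and Dbp and Hlf lie lowest.

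The annotation lists 35 transcripts for the 7 genes, of which 21 had a mean TPM of 1 or more and 3 were listed at 0 in both animals. Tef had the most of these, with 2 long coding transcripts from different starts. Tef-202, from the upstream start, stood at 15.10 TPM in animal 1 and 16.67 in animal 2, with overlapping intervals of 13.3 to 16.3 and 14.8 to 18.0. Tef-201, whose start lies 8993 bases downstream, stood at 14.42 and 9.89 TPM, with intervals of 12.5 to 15.6 and 8.05 to 11.2 that did not overlap. The downstream form was thus 1.46 times higher in animal 1, and 1.41 times in the second quantification, while the upstream form was 1.10 and 1.12 times higher in animal 2. Of the 2 long forms together, the upstream one held 51.2% in animal 1 and 62.8% in animal 2, against 54.5% and 65.5% in the second quantification. The E-box printed above for Tef-201 lies before its start, and that for Tef-202 inside the transcript.

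The other genes with more than 1 transcript differed in how far a single form led. Rora-201, a transcript of 10878 bases from the upstream start, stood at 11.48 and 10.96 TPM, and Rora-202, of 2591 bases from a start 635896 bases downstream, at 9.38 and 8.99. The upstream form held 55.0% of this pair in animal 1 and 54.9% in animal 2, so the animals matched closely here, unlike for Tef. Bhlhe40-201, the full-length coding form, stood at 12.99 and 17.51 TPM, with intervals of 11.9 to 13.5 and 16.3 to 18.0. Bhlhe41-201 stood at 4.44 and 5.56 TPM, with intervals of 4.03 to 4.66 and 5.11 to 5.80. In both DEC genes the intervals of the leading form did not overlap and animal 2 was higher, whereas those of the whole gene overlapped. Most of the remaining abundance was assigned to short coding transcripts, Bhlhe40-202 of 476 bases at 5.96 and 5.29 TPM and Bhlhe41-202 of 744 bases at 2.05 and 2.48. The retained-intron form Bhlhe40-204, of 2620 bases, was lower in animal 2 at 1.10 and 0.37 TPM, with intervals of 0.811 to 1.42 and 0.208 to 0.572 that did not overlap. Nfil3 has 1 annotated transcript. Over all transcripts at a mean TPM of 1 or more, 11.9% had intervals that did not overlap between the animals, and of the 21 of these genes there were 4: Tef-201, Bhlhe40-201, Bhlhe41-201 and Nfil3-201. Over genes the share was 14.9%, and of the 7 there were 2, Dbp and Nfil3.

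**Figure D3:**
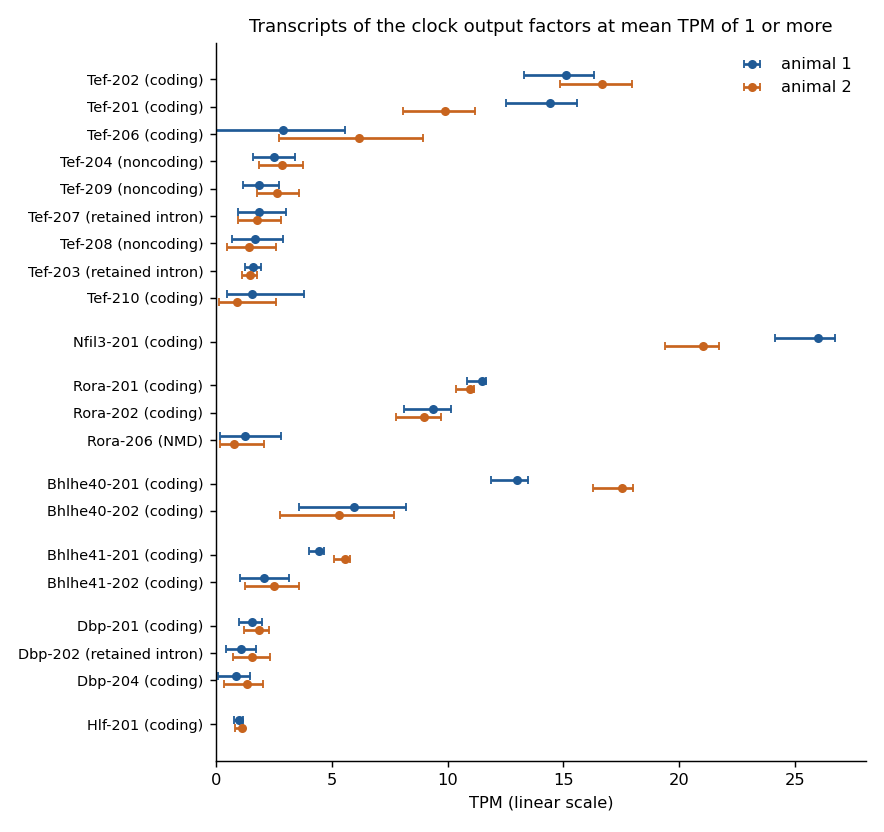
Points give the TPM, on a linear scale, of the 21 transcripts with a mean of 1 or more in animal 1 (blue) and animal 2 (orange), with the deposited interval as a bar and the annotated type in brackets. Tef-201, Bhlhe40-201, Bhlhe41-201 and Nfil3-201 are the forms whose bars do not overlap, and Tef-206, Bhlhe40-202 and other short forms have wide bars.

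Hlf, Nfil3 and Rora have no transcript annotated with a retained intron. Among the other genes, Dbp carried the largest share of such transcripts. These took 37.9% ± 2.52 (SD, n = 2) of its TPM, against 7.58% for Tef, 6.44% for Bhlhe40 and 3.27% for Bhlhe41. In the second quantification the mean shares were 49.5% for Dbp, 19.2% for Tef, 8.93% for Bhlhe40 and 3.01% for Bhlhe41. Dbp-201, the full coding form, stood at 1.56 and 1.84 TPM and the retained-intron form Dbp-202 at 1.09 and 1.57. Dbp-202 rests on 22.5 and 34.3 counts, with wide intervals of 0.443 to 1.74 and 0.710 to 2.34 TPM. Of the exon bases of Dbp, 539 overlap exons of Sphk2 on the opposite strand, a sphingosine kinase gene at 4.77 and 4.95 TPM. The use of strand in counting is not given in the sources used here, so reads of Dbp and Sphk2 from this stretch may not have been told apart. Tef, Bhlhe40, Bhlhe41 and Rora also overlap exons on the other strand, of genes at 0.14 TPM or less. Hlf, from 187 and 190 counts, had 58.9% of its TPM in coding forms in animal 1 and 98.4% in animal 2, but 74.2% and 79.8% in the second quantification. Its full coding transcript, Hlf-201, stood at 0.97 and 1.10 TPM, closer between the animals than the gene as a whole.

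The 2 animals were next compared as libraries, by counts scaled with TMM and an exact conditional binomial test with Benjamini-Hochberg adjustment over 14754 genes. This test covers sampling error only, and 2 animals with 1 library each allow no test of a difference between animals. Over all genes, 1.74% (256, of which 111 were higher and 145 lower in animal 2) passed an adjusted p of 0.05 at over 2-fold. Scaled by library totals the split was 160 higher and 110 lower, and by the ratio of TPM 121 and 102. These 2 scalings moved the median log2 ratio of all genes from -0.0023 to 0.11. Of the 7 genes, 0 reached 2-fold with TMM scaling or under any of the 7 alternatives run. Without the fold limit, 6.49% of all genes were higher and 7.59% lower in animal 2, against 2 and 3 of the 7. Passing without this limit depends on counts, and no share at matched counts was computed. The genes of the 7 that passed had 815 to 4336 counts per library, and those that did not had 140 to 214. The same limit holds for the lists below.

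With TMM scaling Nfil3 had the lowest adjusted p of the 7, at 1445 counts in animal 1 and 1237 in animal 2, a log2 ratio (animal 2 over animal 1) of -0.43 (95% interval -0.54 to -0.32, adjusted p = 1.0e-12, exact conditional binomial test). Tef, with 3789 and 3701 counts, was lower in animal 2 at -0.24 (-0.30 to -0.17), and Rora, with 4306 and 4336, at -0.19 (-0.25 to -0.13). Their adjusted p-values by the exact test were 5.9e-11 and 1.9e-08. Bhlhe40 was higher in animal 2, with 1277 and 1711 counts and a log2 ratio of 0.22 (0.11 to 0.33, adjusted p = 5.6e-04 by the exact test), and with library totals it had the lowest adjusted p of the 7, at 1.3e-08. Bhlhe41 was higher by nearly the same amount, with 815 and 1078 counts and 0.20 (0.07 to 0.33, adjusted p = 0.024 by the exact test). The repressor pair therefore lay on the side opposite to Nfil3, Tef and Rora. Dbp, with 140 and 214 counts and 0.41 (0.10 to 0.73), did not pass at an adjusted p of 0.065 by the exact test, and did so at 0.0064 with library totals, 0.037 with spike-ins and 0.029 in the second quantification. Hlf, at -0.18 (-0.48 to 0.12, adjusted p = 0.54 by the exact test), did not pass. The log2 ratio of TPM for Tef was 0.01, beside a median of 0.11 for all genes tested on that scale, and -0.10 in the second quantification. The mean transcript length given for Tef was 3089 bases in animal 1 and 2842 in animal 2, and its short form Tef-206, of 477 bases, stood at 2.87 and 6.19 TPM, but at 0 and 2.29 in the second quantification. Limited to coding transcripts of 1000 bases or more, a choice made after seeing the data, Tef stood at 29.52 and 26.56 TPM.

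**Figure D4:**
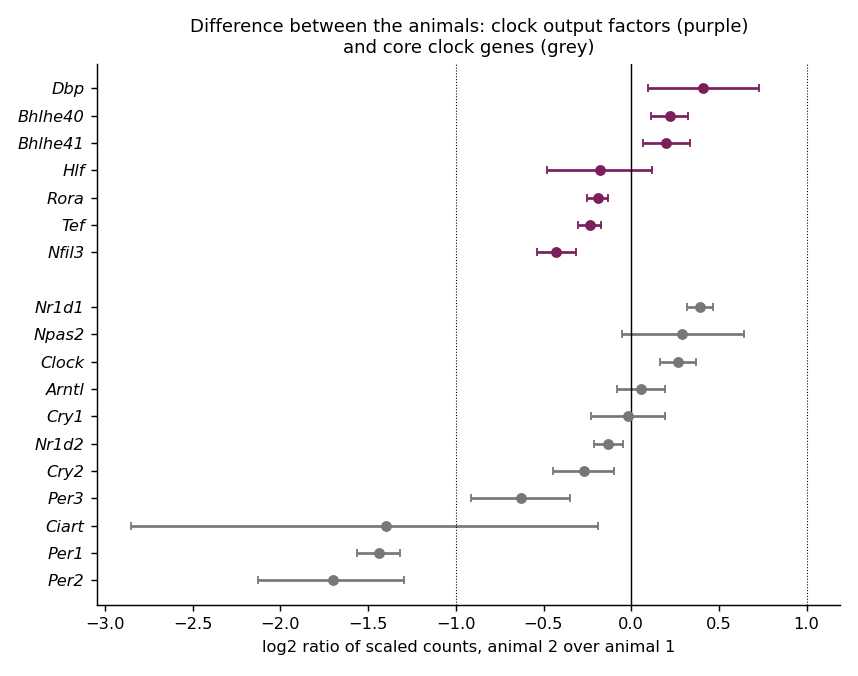
Points give the log2 ratio of TMM-scaled counts, animal 2 over animal 1, with the 95% interval from counting error, for the 7 clock output factors (purple) and 11 core clock genes (grey), and dotted lines mark 2-fold. Every purple point lies within 2-fold, whereas Per1, Per2 and Ciart lie beyond it on the lower side. Ciart, from 19 and 8 counts, did not pass by adjusted p, and its interval of -2.85 to -0.19 reaches within 2-fold.

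Of the core clock genes, only the period genes Per1 and Per2 passed both the adjusted p and 2-fold. Of 11, 9 were detected, 2 were higher and 5 lower in animal 2 by adjusted p, with a median log2 ratio of -0.13 against -0.0023 for all genes tested. With library totals 3 were lower, with spike-ins 4 and in the second quantification 6. The shares of all genes tested were 6.49% higher and 7.59% lower, and 1.74% over 2-fold, not matched for counts. The period gene Per1, part of the negative limb of the loop, stood at 18.19 TPM in animal 1 and 8.22 in animal 2, a log2 ratio of -1.44, and Per2 at 1.15 and 0.38, a ratio of -1.70. Per3 was lower at 1.77 and 1.50 TPM and a log2 ratio of -0.63, and so were the cryptochrome gene Cry2 (5.16 and 4.67 TPM) and Nr1d2 (20.10 and 19.81). The log2 ratio of Nr1d2 was -0.13 (adjusted p = 0.021 by the exact test). Its TPM in the second quantification lay on the other side, at 25.0 and 26.2. No median of all genes was computed on that scale. Nr1d1, the REV-ERB gene most abundant here, was higher at 33.24 and 46.65 TPM with a log2 ratio of 0.39, as was Clock at 6.99 and 8.93 TPM. Arntl (10.32 and 11.47 TPM), Npas2 (1.36 and 2.26), Cry1 (4.75 and 4.61) and Ciart (0.74 and 0.32, from 19 and 8 counts) did not pass. In the second quantification Ciart stood at 0.986 and 1.11 TPM. Nr1d1 was 8.77 times Dbp in animal 1 and 8.36 times in animal 2, although Dbp had only 140 and 214 counts. Dbp, Nr1d1, Per1 and Per2 all have known E-box control, and Per1 and Per2 lay on the other side. Rora was 0.70 times Nr1d1 in animal 1 and 0.46 times in animal 2.

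When clock genes were grouped by the element through which they are known to be controlled, each group held genes on both sides. Of 9 E-box genes, 3 were higher (Nr1d1, Bhlhe40 and Bhlhe41) and 3 lower (Per1, Per2 and Nr1d2), with a median log2 ratio of -0.02. Of 7 D-box genes, 1 was higher (Nr1d1) and 5 lower (Per1, Per2, Per3, Nr1d2 and Rora), with a median of -0.51, which is the value of Rorb itself, from 15 and 12 counts (adjusted p = 0.74 by the exact test). Of 6 genes with ROR elements, Clock was higher and Nfil3 lower, with a median of 0.02. These lists share members with each other and with the 7 genes. Beside these counts, 6.49% of all genes tested were higher and 7.59% lower by adjusted p, not matched for counts.

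Genes related to the output factors or known to act with them were present at a range of levels. As a background by adjusted p, 6.49% of all genes tested were higher and 7.59% lower, and 1.74% also passed 2-fold, not matched for counts. Of the C/EBP factors, basic leucine zipper relatives of the PAR bZIP proteins, Cebpb (44.10 and 36.55 TPM) and Cebpd (5.26 and 3.76) were lower in animal 2, at log2 ratios of -0.39 and -0.57. Cebpg (12.39 and 13.99 TPM) and Cebpa (0.96 and 0.84) did not pass, and Cebpe had 0 counts in both libraries, where 0 counts allow up to 0.0855 and 0.0802 CPM (counts as a share of the library). Cebpb was thus the only one of these at a level like that of Tef. Of 9 bHLH-Orange and Id genes, the relatives and partners of the DEC proteins, Heyl was higher and Id1 and Id3 lower. Id1, a dominant negative partner of bHLH factors, passed 2-fold at 8.97 and 3.78 TPM. Of 6 tested kinase, ligase and other genes acting on clock proteins, only Usp2, which encodes a deubiquitinase, passed, at 66.82 and 62.44 TPM and a log2 ratio of -0.32.

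Genes reported elsewhere as targets passed in 1 of 4, 1 of 5 and 7 of 8 cases in the following lists. Over all genes tested, whatever their counts, 6.49% were higher and 7.59% lower in animal 2 by adjusted p. At high counts small ratios pass, such as that of Slc2a4 (6857 and 8520 counts, log2 ratio 0.11). Myod1, in the last list, did not pass at -0.23 from 379 and 373 counts. Of 4 tested PAR bZIP targets, Pdxk, the kinase that makes active vitamin B6, was lower (3.51 and 2.98 TPM), while the most abundant, Alas1 for haem synthesis (91.28 and 101.55 TPM), did not pass, nor did Por or Ppara. Of 5 ROR alpha targets in muscle cells, Srebf1, a regulator of lipid synthesis, was higher (6.45 and 7.83 TPM), and the most abundant, Cpt1b for fatty acid import into mitochondria (92.82 and 98.27 TPM), did not pass. Of 8 muscle genes reported to follow the clock, Pdp1 and Slc2a4 were higher and 5 lower (Tcap, Pdk4, Hk2, Ucp3 and Tbc1d1). The TPM of Hk2 was 73.91 and 74.91, a log2 ratio of 0.02 beside a median of 0.11 for all genes tested on that scale. None of the 8 muscle genes reached 2-fold. The sarcomere gene Tcap stood at 1017 and 882 TPM, the pyruvate dehydrogenase kinase Pdk4 at 612 and 578, and the glucose transporter Slc2a4 at 102 and 120.

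Other differences between the libraries stood beside these values. Over all genes tested, the shares by adjusted p were 6.49% higher and 7.59% lower in animal 2, not matched for counts. Genes induced by glucocorticoids or in muscle atrophy were lower in animal 2 for 13 of 15 and higher for 1, with 5 over 2-fold (Arrdc2, Ddit4, Mt1, Mt2 and Foxo1), a median log2 ratio of -0.73 and a summed level of 678 and 499 TPM. Of 10 immediate early genes, 5 were lower and none higher, with sums of 94.0 and 82.3 TPM. The tissue label fitted its markers: 11 of 11 genes of the fast fibre list were detected, led by Acta1, Mylpf and Ckm, with sums of 126810 and 124630 TPM. This list also holds general muscle genes such as Acta1 and Ckm, so the sums are not a measure of fast fibres alone. By adjusted p, 9 of the 11 were lower in animal 2 and 0 higher. Of the 9, Ckm, Mylpf and Myl1 had log2 ratios of TPM of 0.07, 0.05 and 0.08. On that scale the median of all genes tested was 0.11, so these still lay below the median gene. Slow fibre genes were higher in animal 2 for 10 of 10 (sums 1501 and 2650 TPM), and Schwann cell genes for 7 of 9 (57.8 and 118 TPM). Fibroblast genes were lower for 7 of 8 (1920 and 1303 TPM) and adipocyte genes for 2 of 5 tested (13.2 and 7.28). Most of the difference in the fibroblast sum lay in Col1a1 (864 and 469 TPM) and Col1a2 (508 and 316). Among the others, Gsn stood at 155 and 135 TPM, and Col3a1 at 229 in both animals. Endothelial genes were higher for 2 and lower for 1 of 8 (69.8 and 77.4 TPM), macrophage genes 1 and 1 of 8 (38.6 and 40.3) and satellite cell genes 1 and 1 of 7 (36.7 and 38.3). Detected at 1 TPM or more in both animals were 4 of 9 Schwann cell, 1 of 6 adipocyte, 6 of 8 macrophage and 3 of 7 satellite cell genes. None of 6 neuron markers was detected. The signal recognition particle RNAs Rn7s1 and Rn7s2 took 26.6% and 29.8% of all TPM, which lowers the TPM of every other gene. The part of these differences in the results for the 7 genes was not tested.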

How the data were processed

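Total RNA of 2 animals of 1 group was analysed, 1 library each. The first gene and transcript tables hold expected counts, TPM, posterior mean TPM with interval bounds, and the percent of a gene's TPM per transcript, all computed by the authors in columns that RSEM writes, per the file headers. Per the file headers, the other transcript table has the columns of kallisto, estimated counts and TPM, and was summed to genes. The interval bounds are signal values in TPM at a level not stated, as deposited. The deposited descriptions name mm10 and GENCODE M21; for versions, aligner and strand use, the sources used here give nothing. Of 81881 gene entries, 55536 matched M21 genes, 96 were spike-ins, and 26248 entries named by a number were left out.

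Levels are the deposited TPM. Expected counts were rounded and scaled by TMM (edgeR 4.0.16, R 4.3.3), and an exact conditional binomial test (two-sided, scipy 1.17.1) was run where both libraries together held 20 counts or more, with p adjusted after Benjamini and Hochberg. Calls needed more than a 2-fold ratio (prior count 0.5) and an adjusted p below 0.05. Intervals of ratios (95%, Clopper-Pearson) and the floor of 3 counts take in only the error of counting, as reads lacking molecular identifiers may repeat a molecule. The test was checked on simulated counts. Alternatives were DESeq2 1.42.0 size factors, library totals, spike-ins, the second quantification, no count filter, a prior count of 2 and the ratio of TPM. All 7 genes are named, with core clock, ROR and C/EBP genes (part of this set is not reported here) and, per list, up to 3 members of highest mean TPM and those called; others named were chosen after their values were seen. The genes and lists were chosen with earlier results of these data known.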

Additional observations from a re-analysis of the deposited data

How the results depend on the processing

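The levels of the 7 genes kept their order in the second quantification. Over the alternatives, 21 values moved by more than the SD of the 2 animals and 21 did not. Leaving out either animal always falls in the latter group by arithmetic. For Tef this SD was 0.17 TPM, so small shifts counted as moved. Mean TPM in the second quantification was 6.79 for Dbp, 57.9 for Tef, 1.97 for Hlf, 33.6 for Nfil3, 29.1 for Bhlhe40 and 30.2 for Rora. With TPM rescaled over nuclear protein-coding genes alone, the means were 11.7 for Dbp, 111 for Tef, 3.83 for Hlf, 59.3 for Nfil3, 56.1 for Bhlhe40, 18.9 for Bhlhe41 and 56.3 for Rora. These genes held 38.9% and 40.6% of all TPM, so rescaling over them raises every level by arithmetic. The posterior mean gave 44.23 for Tef and 2.14 for Hlf. With coding transcripts of 1000 bases or more, an alternative chosen after seeing the data, the means were 2.90 for Dbp, 28.0 for Tef, 1.03 for Hlf, 15.2 for Bhlhe40, 5.0 for Bhlhe41 and 20.4 for Rora. The log2 ratio of Tef between the animals was 0.0079 in the ratio of TPM, a scale on which the median of all genes was 0.11, so Tef still lay below the median gene, and 48 other values of the 7 ratios over the alternatives kept their direction. The number of core clock genes lower in animal 2 was 3 with library totals. In the second quantification Bhlhe41-201 held 82.8% of its gene, Tef-202 38.5%, and the upstream start of Rora 56.2% of its pair. Counts of genes called over 2-fold ran from 216 to 287 over the alternatives. Leaving out either animal leaves the other animal's value, given with each level, and no ratio. No paired analysis was possible because there is 1 group. Depth limits Hlf and Dbp most, with 140 to 214 counts per library.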
